A study of Homo sapiens with 20 samples.

Results

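The resting transcriptome of human keratinocytes was described from the 5 WT unwounded libraries, out of 20 libraries in the series. Its members are the libraries whose labels give the genotype wild type and the treatment unwounded. The study put NTERT keratinocytes, a human epidermal line immortalised with the catalytic subunit of telomerase, through RNA sequencing. There were 4 groups of 5 replicates each: WT or GCN2KO cells, each left unwounded or given a high-density wound (HDW). For HDW, parallel scratches were drawn across the well. GCN2KO cells were a CRISPR/Cas9-edited pool lacking the eIF2 kinase GCN2, encoded by EIF2AK4, and the WT cells carried a control guide RNA. All groups shared the telomerase transgene and the low-calcium EpiLife culture medium, and the study's methods state that confluent monolayers were moved to raised serum and calcium to differentiate before wounding, so the unwounded WT cells were a confluent, submerged sheet with no stratified tissue or other skin cells around it. The study counts its n in biological replicates, but whether the 5 replicates of this group came from separate cultures or batches is not described. The spread between these replicates may therefore be in part technical.

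Keratinocytes are the epithelial cells of the epidermis. Basal cells are anchored to the basement membrane through hemidesmosomes, divide, and build their cytoskeleton from the keratin pair K5 and K14. Cells that leave the basal layer replace this pair with K1 and K10, crosslink proteins such as involucrin into a cornified envelope, and in the outermost layers process filaggrin and loricrin into a dead, protective sheath. Keratins K6, K16 and K17 are low in resting interfollicular epidermis and are known from hair follicles, wounds and cultured cells.

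Reads assigned to genes numbered 14083504, 15922617, 23685751, 30505904 and 29476905 in replicates 1 to 5. Protein-coding genes took 98.0% of counts, lncRNA genes between 1.04% and 1.1%, and genes of the mitochondrial chromosome between 0.484% and 0.536%. A count of 0 in a library allows a level of up to 3 counts, which was 0.0983 to 0.213 CPM (counts scaled to a fixed library total), and this limit covers counting error only. Every pair of libraries differed by more than sampling noise, so all 5 were kept as separate replicates. Abundance is given in TPM (transcript abundance scaled to a fixed sum), which divides each gene's count by its length, here the union of all its annotated exonic bases. Values are per library or as mean ± SD over the 5 replicates. In bulk RNA, fewer cells of a kind and less RNA per cell cannot be told apart.

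Of 56410 genes matched to the annotation, 13435 had at least 1 TPM in all 5 libraries and are termed expressed here, among them 11472 of 19629 protein-coding genes and 816 lncRNA genes. In all 5 libraries 8582 genes reached 10 TPM, 1517 reached 100 TPM and 130 reached 1000 TPM. At the other end, 29614 genes had no count in any library, including 3780 protein-coding genes, and 4929 protein-coding genes stayed under 0.1 TPM in all 5, the level termed silent here. Genes between the limits are termed low. The 10 genes with the most counts took between 6.64% and 7.13% of a library, so no small set of transcripts filled the libraries.

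The most abundant transcripts by TPM encoded ribosomal proteins, keratins, S100 proteins and elongation factors. RPS12, a protein of the small ribosomal subunit (ENSG00000112306, chr6:132814569-132817564 in GRCh38, as for all gene positions given here), led with 10974, 11260, 11615, 11338 and 11658 TPM. S100A9, a calcium-binding subunit of calprotectin (ENSG00000163220, chr1:153357854-153361023), followed with 10336, 9812, 10310, 8700 and 10350 TPM. KRT5, the basal type II keratin (ENSG00000186081, chr12:52514575-52520530), came next with 7998, 8301, 8193, 8410 and 8041 TPM. RPS12 was above S100A9 and S100A9 above KRT5 in every library, and replicate 4 held the lowest S100A9 value and the highest KRT5 value.

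EEF1A1 (7718 ± 370 TPM), which delivers aminoacyl-tRNA to the ribosome, TMSB10 (7705 ± 200), an actin monomer-binding thymosin, and EEF2 (7487 ± 357), the translocation factor, differed by less than their spread between replicates. RPS18 (7223 ± 187 TPM), RPL8 (6575 ± 107), KRT15 (6239 ± 178) and RPL13A (5886 ± 198) completed the 10 highest. The same 10 genes led each of the 5 libraries, 23 genes were among the 25 highest in all 5, and 95 among the 100 highest in all 5. Of the 25 highest by mean TPM, 12 were cytosolic ribosomal protein genes.

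The order depended on which length stood for the gene. EEF1A1 has 10063 annotated exonic bases but a canonical transcript of 3512 bases, KRT15 has 5969 against 1712, and RPS18 has 1834 against 549. With the canonical transcript, a length chosen after seeing the data, RPS18 led at 12478 TPM, followed by EEF1A1 at 11436 and KRT15 at 11250, and S100A9 stood at 5120 TPM. Then 18 of the 25 highest were ribosomal protein genes, and 17 of the 25 highest by exonic length stayed among them. Without any length, EEF1A1 led at 18927 CPM, ahead of KRT15 at 9075, KRT5 at 8245 and EEF2 at 7336 CPM. KRT5, KRT15, KRT17, EEF1A1 and EEF2 were each among the 25 highest on all 3 scales. Of read-length windows in EEF1A1, 10.6% also occur in another annotated gene, and reads from those stretches cannot be placed. The same share was 15.7% for RPL7A, 14.5% for MT-CO1, 9.72% for RPS2, 9.44% for RPL3, 8.03% for RPLP0 and 4.70% for RPL13A. The values and ranks of these genes are therefore uncertain. For RPS12, S100A9, TMSB10, EEF2, RPS18 and RPL8 no window was shared.

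**Figure D1:**
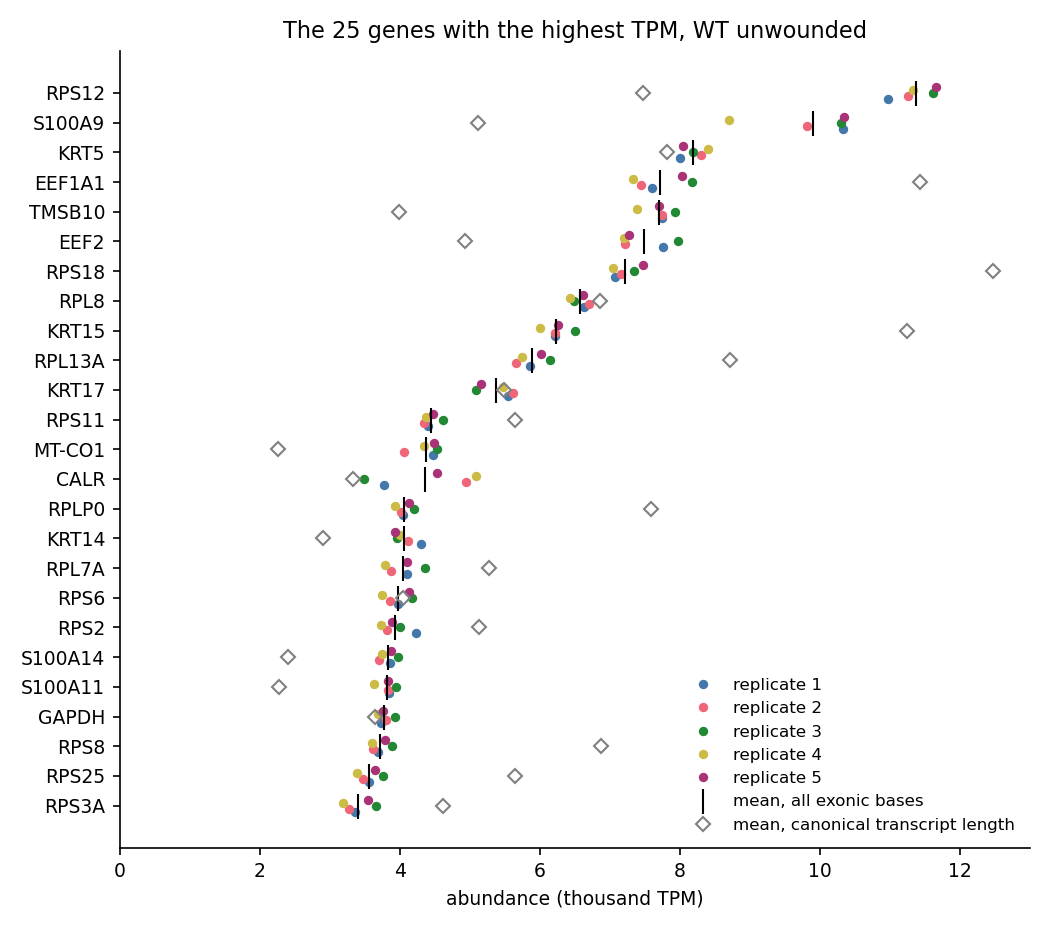
The 25 genes with the highest mean abundance in WT unwounded keratinocytes, with abundance in TPM, scaled as marked, on the x axis. Coloured points are the 5 replicates, vertical bars their mean with all exonic bases as gene length, and open diamonds the mean with the canonical transcript length. RPS12 leads in all 5 libraries by exonic length, and the diamonds place RPS18, EEF1A1, KRT15, RPL13A, KRT5 and RPLP0 above it.

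Summed by function, the 80 cytosolic ribosomal protein genes held 15.8 ± 0.396% of all TPM, and all 80 were expressed. S100 proteins and annexins held 3.15 ± 0.113%, keratins 3.08 ± 0.0452%, and the 13 protein-coding genes of the mitochondrial genome 2.35 ± 0.103%. The actin cytoskeleton list held 2.04 ± 0.0574% and the translation elongation factors 1.99 ± 0.0686%. Chaperones (1.75 ± 0.138%), nuclear genes of oxidative phosphorylation (1.19 ± 0.0108%) and glycolysis (1.05 ± 0.0247%) came after these. With canonical lengths the ribosomal share was 25.7% and the mitochondrial share 1.21%. The shared windows given above also make the ribosomal, mitochondrial and elongation factor shares uncertain.

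Within these lists GAPDH, the glyceraldehyde-3-phosphate dehydrogenase of glycolysis, was at 3781 ± 96.4 TPM, and the aldolase gene ALDOA at 1545 ± 42.1 TPM, although 54.2% of the exonic bases of ALDOA overlap another gene, where reads may not be assigned. ACTG1 and ACTB, the cytoplasmic actins, were at 1772 ± 220 and 1394 ± 109 TPM. FTH1 and FTL, the heavy and light chains of ferritin, were at 2674 ± 271 and 2351 ± 178 TPM, with the same limit for FTH1, of whose exonic bases 63.2% overlap another gene. EEF1G, an elongation factor subunit, was listed at 1.71 ± 0.328 TPM. It was picked out after its values were seen, and 99.7% of its exonic bases overlap another annotated gene, so its low value is uncertain.

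For 2 of the 3 leading genes the promoter was in the sequence table used here, and both are shown because they sit upstream of the most abundant epidermal transcripts. Each line gives the 250 bases before the RefSeq start (build GRCh38.p14), 5′ to 3′ on the gene's strand, in lower case. Capitals mark the TATA-box letters TATAAA, searched on both strands.
KRT5, chr12:52520395-52520644, minus strand: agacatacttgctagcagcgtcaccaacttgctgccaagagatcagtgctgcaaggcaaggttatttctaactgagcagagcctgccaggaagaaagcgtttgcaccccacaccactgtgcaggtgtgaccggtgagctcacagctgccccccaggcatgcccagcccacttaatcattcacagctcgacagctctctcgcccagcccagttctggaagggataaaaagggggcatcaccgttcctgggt
S100A9, chr1:153357604-153357853, plus strand: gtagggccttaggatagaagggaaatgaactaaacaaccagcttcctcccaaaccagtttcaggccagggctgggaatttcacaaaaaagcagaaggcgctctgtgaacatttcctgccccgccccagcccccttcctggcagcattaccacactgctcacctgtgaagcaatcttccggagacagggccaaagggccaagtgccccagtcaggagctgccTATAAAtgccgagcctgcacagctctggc
The S100A9 window held TATAAA once, 29 bases before the start, and the KRT5 window held no match to these letters. Of 27304 promoters of the same length, 11.1% held TATAAA. A match is a description of the letters and not evidence of a bound site.

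Keratins were the most abundant structural family. They form filaments as pairs of an acidic type I and a basic type II chain. Of 29 type I keratin genes, 9 were expressed, 13 low and 7 silent, and of 26 type II genes 10 were expressed, 9 low and 7 silent. KRT5, KRT14, KRT15, KRT17 and KRT6A together held 88.4 ± 1.09% of all keratin TPM. Summed over all genes, type I exceeded type II TPM 1.34 ± 0.0496-fold, or 1.89 ± 0.0640-fold with canonical lengths.

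The basal keratins were high in every library. KRT14, the type I partner of KRT5 (chr17:41582279-41586895), was at 4300, 4114, 3964, 4008 and 3941 TPM. KRT15, a further basal type I keratin (chr17:41513745-41522529), was at 6215, 6214, 6505, 6004 and 6259 TPM. The 5 KRT15 values lay above the 5 KRT14 values, and KRT5 exceeded KRT14 in every library, 2.02 ± 0.0927-fold on average. With canonical lengths KRT15 exceeded KRT5 (11250 against 7821 TPM), so the order of the leading keratins rests on the length used.

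Keratins of wounds and hyperproliferation were also among the highest although these cells were unwounded. KRT17 (chr17:41619442-41624842) was at 5551, 5618, 5087, 5481 and 5163 TPM, and KRT6A (chr12:52487176-52493257) at 3248, 3540, 3258, 3578 and 3258 TPM. KRT17 was thus above KRT14, and KRT6A below it, in all 5 libraries. KRT16, the usual type I partner of KRT6A, was far lower at 329, 262, 299, 279 and 293 TPM, which put KRT6A 11.6 ± 1.48-fold above it. KRT6B (63.4 ± 5.6 TPM) and KRT6C (13.9 ± 0.693 TPM) were the minor K6 genes. Between 9.26% and 16.3% of 150-base windows in KRT6A, KRT6B and KRT6C also occur in a related gene, so reads from those stretches cannot be placed and these 3 values are uncertain. For KRT14 and KRT16 the shared windows were 0.605% and 0.729%, and for KRT5, KRT15 and KRT17 none was shared.

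Keratins of the suprabasal epidermis lay far below the basal keratins. KRT10 (chr17:40818117-40822614) was at 109, 70.1, 101, 65.8 and 76.7 TPM and KRT1 (chr12:52674736-52680407) at 1.40, 0.830, 1.25, 1.20 and 1.84 TPM. KRT14 therefore exceeded KRT10 50.0 ± 10.2-fold, and KRT5 exceeded KRT1 by between 4365-fold and 10005-fold. KRT2, the keratin of the upper spinous and granular layers, was silent at 0.0106 TPM on average, and KRT9, the keratin of palms and soles, was low at 1.09 ± 0.279 TPM.

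Keratins of internal stratified epithelia were prominent instead. KRT13 and KRT4, the pair of the oral and oesophageal lining, stood at 1560, 1110, 1565, 1177 and 1264 TPM and at 822, 533, 825, 534 and 623 TPM respectively. Replicates 1 and 3 were highest for KRT13, KRT4, KRT10 and SPRR1B alike. Other annotated genes overlap 16.3% of the exonic bases of KRT13. The simple-epithelium pair KRT8 (164 ± 2.83 TPM) and KRT18 (168 ± 2.40 TPM) was expressed at near-equal TPM and varied little between libraries, though with canonical lengths KRT8 was at 327 and KRT18 at 189 TPM. KRT19 was low at 0.798 ± 0.320 TPM and KRT20 had no count.

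Hair keratins were mostly low or silent with 1 exception of size. KRT81, a type II hair-cortex keratin (chr12:52285913-52291534), was at 587, 642, 532, 677 and 585 TPM, while its neighbour KRT86 was at 4.63 ± 1.13 TPM and the type I hair keratin KRT31 at 2.63 ± 0.188 TPM. KRT25, KRT26, KRT27, KRT28, KRT71, KRT72 and KRT73, keratins of the inner root sheath, had no count in any library. Of 94 keratin-associated protein genes, which form the matrix of the hair shaft, none was expressed and 91 had no count.

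**Figure D2:**
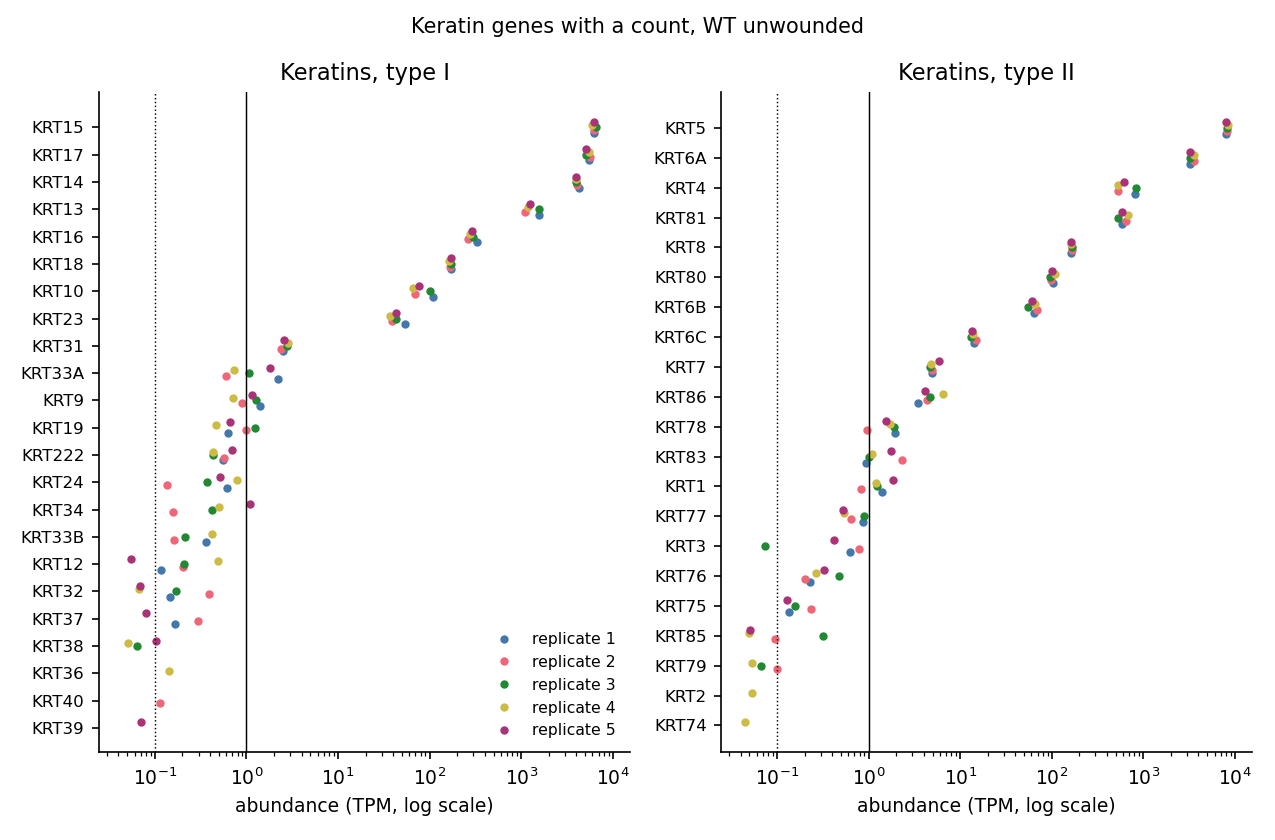
Abundance of each keratin gene with a count, type I left and type II right, in TPM on a log axis, with 1 point per replicate. The solid line marks 1 TPM and the dotted line 0.1 TPM, and libraries at 0 are not drawn. KRT5, KRT15, KRT17, KRT14 and KRT6A lie at the top of the axis by exonic length while KRT1 lies near 1 TPM.

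The cornified envelope genes divided by stage. Early components were expressed: CSTA, a cysteine protease inhibitor crosslinked into the envelope, at 1081 ± 64.8 TPM, SPRR1B at 642, 441, 595, 426 and 508 TPM, PPL (periplakin) at 214 ± 13.1, IVL (involucrin) at 210 ± 18.2, TGM1, the membrane transglutaminase, at 134 ± 16.3 and EVPL (envoplakin) at 79.9 ± 7.5 TPM. Of 11 small proline-rich protein genes 8 were expressed, with SPRR1A (23.8 ± 5.99 TPM) and SPRR2D (19.6 ± 2.91) after SPRR1B. SPRR2A and SPRR2B share 12.3% of windows with relatives and are uncertain.

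Of 14 terminal differentiation markers 4 were expressed, led by CASP14, the protease that processes filaggrin. CASP14 was at 226, 145, 240, 127 and 158 TPM, with replicates 1 and 3 above the others. CALML5, a calmodulin-like protein of the upper epidermis, was next in the terminal marker list at 8.38 ± 1.32 TPM. FLG (filaggrin) was at 1.43 ± 0.198 TPM, LORICRIN (loricrin) had no count in any library, and HRNR (hornerin) was at 0.821 ± 0.231 TPM. Of 18 late cornified envelope genes only LCE1B was expressed, at 2.17 ± 0.426 TPM, and 12 had no count. With the canonical length FLG (0.737 TPM) was below 1 TPM on average, and LCE1B (1.12 TPM) no longer reached 1 TPM in all 5 libraries. None of 16 genes with kallikrein names was expressed, the highest being KLK5 at 0.528 ± 0.279 TPM, a protease of corneocyte shedding, and 9 had no count. CDSN (corneodesmosin) was at 0.0414 ± 0.0568 TPM, an uncertain value because 93.7% of its exonic bases overlap another gene.

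Adhesion genes followed the basal set. Of 13 desmosomal genes 10 were expressed, led by PERP (1919 ± 74.0 TPM), JUP (plakoglobin, 893 ± 18.6), DSP (desmoplakin, 626 ± 21.9) and the desmosomal cadherins DSG3 (590 ± 7.25) and DSC3 (331 ± 10.5), both of the lower epidermis, and DSG2 (248 ± 8.52). The cadherins of the upper epidermis were low or silent: DSG1 at 0.0154 ± 0.0152 TPM and DSC1 at 0.551 ± 0.170 TPM. Among 23 classical cadherin genes CDH3 (P-cadherin, 800 ± 28.8 TPM) and CDH1 (E-cadherin, 528 ± 22.5) held 95.7 ± 0.341% of the family's TPM, and CDH2 (N-cadherin) was at 0.0626 ± 0.0458 TPM.

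All 10 genes of the hemidesmosome and basement membrane receptor list were expressed. COL17A1, a transmembrane collagen, was at 1718 ± 41.7 TPM, and ITGB4 and ITGA6, the hemidesmosomal integrin pair, at 1076 ± 33.3 and 897 ± 26.6 TPM. ITGB1 varied little in TPM, at 376, 376, 381, 376 and 380, and 8.42% of its windows also occur in ITGB1P1. Among 25 integrin genes 10 were expressed, with ITGA3 (354 ± 21.3 TPM) and ITGB6 (223 ± 8.15) next. Of the leukocyte and platelet chains ITGAL, ITGAX and ITGB3 were silent. Others were low, among them ITGAM (0.782 ± 0.164 TPM), ITGB7 (0.405 ± 0.205), ITGB2 (0.177 ± 0.109) and ITGA2B (0.111 ± 0.0695).

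Matrix genes included chains of the epidermal basement membrane. Among 12 laminin chain genes 9 were expressed. LAMB3 was at 1919, 2426, 1900, 2571 and 2222 TPM and LAMA3 at 582 ± 47.0 TPM. Replicates 2 and 4 held the highest values of both. COL7A1, the anchoring fibril collagen, was at 244 ± 15.6 TPM, followed among the collagens by COL16A1 (116 ± 7.31) and COL12A1 (110.1 ± 12), while of 44 collagen genes 20 were silent. COL1A1 was expressed at 14.3 ± 0.991 TPM, but its partner chain COL1A2 had 1, 1, 1, 4 and 1 counts.

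Tight and gap junction genes were restricted to a few members. Of 24 claudins 7 were expressed, chiefly CLDN1 (339 ± 38.2 TPM), the main epidermal claudin, CLDN7 (117 ± 4.38) and CLDN4 (52.3 ± 4.64). Of 21 connexins 8 were expressed, among them GJB2 (374 ± 16.8 TPM), GJB5 (163 ± 4.28) and GJA1 (144 ± 9.70). Among 15 aquaporins AQP3, the epidermal glycerol and water channel, was the single expressed member, at 161 ± 10.3 TPM.

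**Figure D3:**
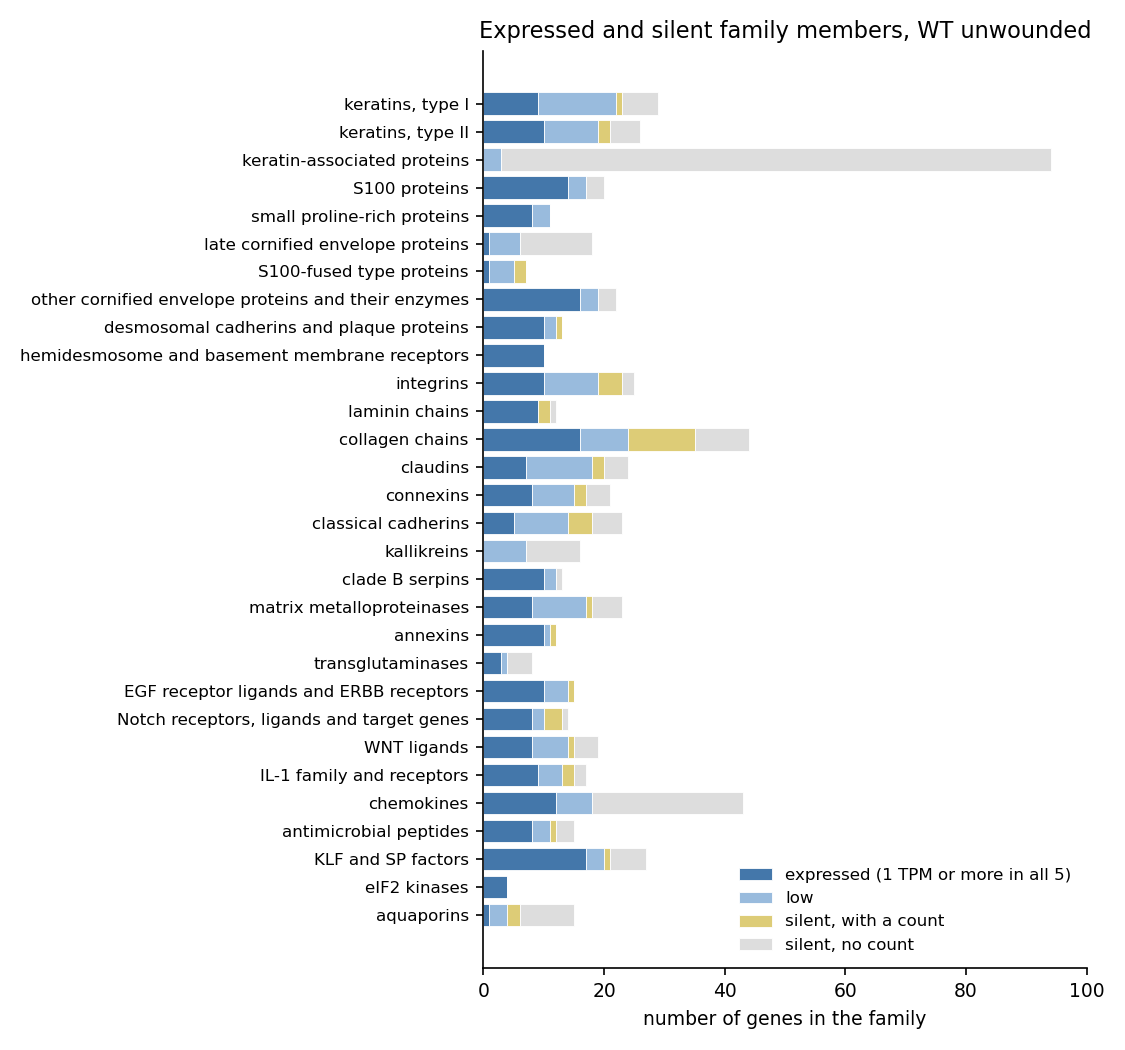
Number of genes per family in WT unwounded keratinocytes that were expressed (1 TPM or more in all 5 libraries), low, silent with a count, or silent with no count. All 10 hemidesmosome genes and all 4 eIF2 kinases were expressed, and 91 of 94 keratin-associated protein genes had no count.

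S100 proteins were the second structural and signalling family by abundance, with 14 of 20 genes expressed. S100A9 alone held 34.0 ± 1.24% of S100 TPM. S100A14 (3832 ± 107 TPM), S100A11 (3820 ± 115), S100A2 (3205 ± 155), S100A6 (2795 ± 205) and S100A10 (2089 ± 118) followed. S100A8, the calprotectin partner of S100A9, was at 1641 ± 109 TPM, below S100A9 in every library and also below it by canonical length (1853 against 5120 TPM). S100A7 (psoriasin) was at 114 ± 15.6 TPM, while S100B, S100G and S100Z had no count. ANXA2, which binds S100A10, was at 865 ± 22.7 TPM by exonic length and 3332 TPM by canonical length, and 3.40% of its windows also occur in ANXA2P2.

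Of 15 antimicrobial genes 8 were expressed. Beside S100A8 and S100A9, LCN2 (lipocalin-2) was at 2230, 2634, 2188, 2619 and 2513 TPM, SLPI, a secreted protease inhibitor, at 731 ± 58.4 and PI3 (elafin) at 716 ± 43.5 TPM. DEFB4A, a beta-defensin gene, was low at 1.65 ± 0.843 TPM, and its relatives DEFB103A, DEFB103B and DEFB4B had no count, but between 48.8% and 100% of the windows of these 4 genes occur in a duplicate copy, so their values are uncertain. CAMP (cathelicidin) was at 0.263 ± 0.158 TPM. Among IL-1 family genes IL18 (155 ± 19.5 TPM), IL1A (124 ± 9.48) and IL1B (93.0 ± 10.4) were expressed and IL37 had no count. Of 43 chemokine genes 12 were expressed, led by CXCL1 (123 ± 13.5 TPM) and CXCL16 (93.5 ± 9.0), and 25 had no count.

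Proteases and their inhibitors were led by MMP14 (690 ± 27.8 TPM), a membrane-bound collagenase, and MMP28 (213 ± 18.1), with 8 of 23 matrix metalloproteinase genes expressed. MMP1, the interstitial collagenase, was low at 0.0962 ± 0.0753 TPM and MMP10 (stromelysin-2) at 0.327 ± 0.108 TPM. SERPINB5 (maspin, 685 ± 14.2 TPM) and SERPINB7 (434 ± 19.3) led 10 expressed clade B serpins of 13. EGF receptor ligands were led by AREG (amphiregulin), at 354, 462, 346, 444 and 398 TPM, followed by TGFA (65.5 ± 3.63) and EREG (59.7 ± 9.25), while the receptor gene EGFR was at 95.9 ± 3.81 TPM and EGF itself at 0.0527 ± 0.0406 TPM.

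Among Notch genes NOTCH1 (234 ± 25.3 TPM), JAG1 (212 ± 15.7) and the target HES1 (122 ± 5.36) were expressed and NOTCH4 and DLL4 silent. WNT10A (133 ± 11.6 TPM) and WNT7B (82.1 ± 4.93) led 8 expressed WNT genes of 19. Of 45 keratinocyte transcription factor genes 38 were expressed, among them ID1 (1631 ± 249 TPM), an inhibitor of helix-loop-helix factors, KLF5 (516 ± 11.4) and TP63, the master factor of stratified epithelium, at 227, 229, 238, 239 and 229 TPM. KLF4, a factor of the barrier-forming layers, was at 33.2 ± 4.06 TPM.

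All 4 kinases that phosphorylate eIF2, the family of the gene edited elsewhere in the study, were expressed. EIF2AK4 (GCN2, chr15:39934115-40035591) was at 53.8, 50.1, 54.2, 52.2 and 52.6 TPM, a narrow range. EIF2AK1 (HRI, 120 ± 2.25 TPM) and EIF2AK2 (PKR, 95.6 ± 9.35) were above it and EIF2AK3 (PERK) below it at 4.71 ± 0.211 TPM, in that order in every library. With canonical lengths EIF2AK4 (58.9 TPM) stood slightly above EIF2AK2 (54.7), and EIF2AK3 remained lowest at 11.1 TPM.

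Cell-cycle genes of the mitotic end held a small share of TPM. Of 24 genes of mitosis and G2/M 15 were expressed, and all 24 together held 0.0102 ± 0.00125% of TPM. CCNB1 (cyclin B1) was at 13.9, 9.01, 13.4, 9.93 and 11.1 TPM. MKI67, low by the limits used here, was at 1.68, 1.17, 1.44, 0.929 and 1.02 TPM. Among replication genes PCNA stood at 309 ± 8.48 TPM. CDKN1A (p21), an inhibitor of cyclin-dependent kinases and p53 target, was at 1090 ± 107 TPM, and all 19 genes of that list were expressed. CDKN2A was at 23.9, 16.3, 14.3, 14 and 15.7 TPM, highest in replicate 1. TERT, to which reads of the telomerase transgene could also map, had 27, 15, 35, 28 and 27 counts.

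The labelled cell type was checked against its markers. Of 13 basal keratinocyte markers 12 were expressed and held 2.44 ± 0.0235% of TPM, POSTN having no count. The 12 early differentiation markers held 0.0591 ± 0.00635% with 9 expressed, and the 14 terminal markers 0.0193 ± 0.00507% with 4 expressed, CASP14 making up most of that share. Of the markers of other cells, 0 of 7 endothelial genes were expressed, 1 of 10 fibroblast genes (COL1A1), 2 of 8 melanocyte genes (PMEL at 1.74 and MITF at 1.71 TPM), 2 of 10 immune genes and 1 of 8 Merkel and neural genes (ISL1 at 2.59 TPM). Of 8 genes of glandular and simple epithelium 5 were expressed: KRT18, KRT8, MUC1 (57.1 ± 2.13 TPM), EPCAM (12.3 ± 1.99) and KRT7 (5.05 ± 0.493). PTPRC, CD207, PDGFRA, THY1, TYR and SOX10 had no count. Low genes in the lists of other cells included MLANA (1.02 ± 0.108 TPM), FBN1 (0.766 ± 0.156), DCN (0.611 ± 0.154), LUM (0.456 ± 0.251) and KDR (0.332 ± 0.104). Each of these low genes had counts in all 5 libraries. CD14, in the immune list, was at 148 ± 8.60 TPM without the other leukocyte genes of that list except CD68, 85.6% of whose exonic bases overlap another gene, and VIM (vimentin) was at 7.99 ± 1.43 TPM.

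The 5 libraries differed little. Across 10551 genes with a mean of at least 5 CPM, the median coefficient of variation (CV) beyond what counting error gives, termed the excess CV here, was 0.0355. It was 0 for 2311 genes (21.9%), at least 0.1 for 882 genes (8.36%), at least 0.2 for 99 and at least 0.3 for 13. The last count was 21 without replicate 2, 25 without replicate 5 and 107 at a mean of 1 CPM or more. The steadiest genes at 100 CPM or more were TBCA, USP7, TALDO1, SMARCD2, ADIPOR1, AFF4, NSFL1C, TNS4, CD82 and CHD8, whose CVs lay between 0.00586 and 0.00900, below their counting error. TBCA, a tubulin-folding cofactor, was at 107.2, 107.6, 107.0, 107.9 and 106.3 CPM after TMM scaling.

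The 30 most variable genes were chosen by the excess CV itself, so their spread is a description. The last inside was IFIT1 at 0.256 and the first outside were DLC1 at 0.256 and WARS1 at 0.253. Of the 30, 5 are in the list of ATF4 targets and amino acid metabolism, 5 in that of interferon-stimulated genes, and 16 in no list used here. The ATF4 and interferon lists each hold 25 of the 10551 genes measured for spread. In 19 of 30, replicates 2 and 4 were both above replicates 1, 3 and 5, an order seen in 16.0% of all 10551 genes. In 8 of 30 (26.7%) replicate 1 was highest and in 4 of 30 (13.3%) replicates 1 and 3 were both above the rest, shares near the 21.8% and 13.1% of all genes. NRARP, a feedback inhibitor of Notch, meets both of the last descriptions.

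**Figure D4:**
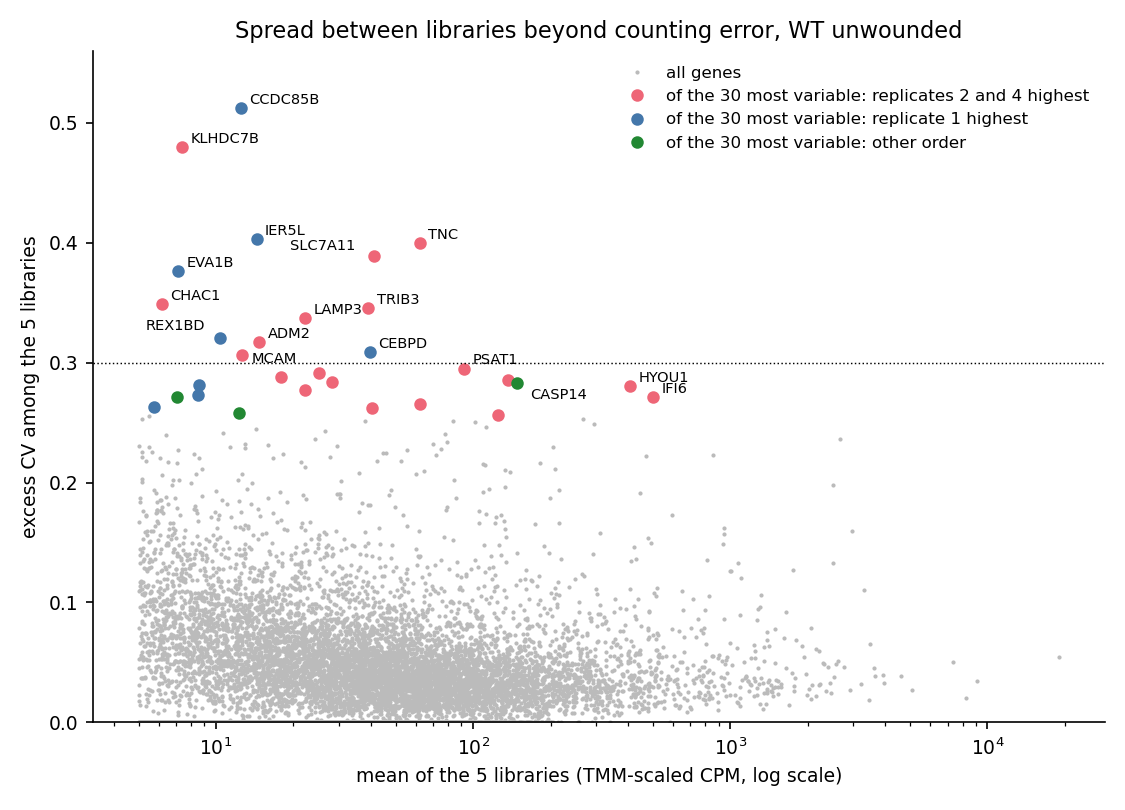
Excess CV among the 5 libraries against mean abundance in TMM-scaled CPM (log axis), 1 point per gene for 10551 genes, with the 30 most variable coloured by which replicates were highest. The dotted line marks 0.3, passed by 13 genes, with CCDC85B (0.512) and KLHDC7B (0.479) at the top.

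Among genes highest in replicates 2 and 4, SLC7A11, the light chain of the cystine and glutamate exchanger, was at 26.9, 53.2, 21.8, 58.1 and 45.3 scaled CPM. CHAC1, a glutathione-degrading enzyme, was at 4.44, 8.30, 3.51, 8.43 and 6.16, and TRIB3, a stress-induced pseudokinase, at 26.4, 52.5, 23.7, 51.4 and 41.7 scaled CPM. Replicates 2 and 4 were highest, replicate 5 lay between, and replicates 1 and 3 were lowest in each. PSAT1, an enzyme of serine synthesis, ran from 63.0 in replicate 1 to 120.7 in replicate 4, and DDIT3 (CHOP), 39.6% of whose exonic bases overlap another gene, from 16.1 to 33.1 scaled CPM in the same replicates. TNC (tenascin-C, a matrix glycoprotein) was at 40.7, 78.8, 33.7, 92.6 and 64.9 scaled CPM.

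The interferon-stimulated genes had the same high replicates but not the same place for replicate 5. ISG15, a ubiquitin-like modifier, was at 112, 193, 99.4, 159 and 117 scaled CPM, IFI6 at 500, 689, 330, 562 and 427, and IFIT1, which binds foreign RNA, at 103, 157, 90.1, 159 and 112. RSAD2 (viperin) was at 21.7, 28.4, 14.1, 28.3 and 18.3 scaled CPM, and replicate 3 was lowest in all 4 genes. HYOU1, an endoplasmic reticulum (ER) chaperone outside that list, was at 297, 476, 290, 554 and 418 scaled CPM. Its fellow chaperones CALR (calreticulin; 3771, 4948, 3494, 5089 and 4530 TPM), HSPA5 (BiP; 1291, 1988, 1245, 2131 and 1737 TPM) and HSP90B1 (GRP94; 624, 898, 626, 972 and 825 TPM) also had replicates 2 and 4 highest, replicate 5 between and replicates 1 and 3 lowest.

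The whole chaperone list did not follow this order: over its 23 genes the median log2 difference from each gene's mean was -0.01, -0.02, 0.04, -0.02 and 0.02 in replicates 1 to 5, and 8 of 23 had an excess CV of at least 0.1, against 8.36% of all genes. For 25 measured genes of ATF4 targets and amino acid metabolism the same medians were -0.23, 0.18, -0.18, 0.17 and 0.05, and 16 of 25 had an excess CV of at least 0.1. For 25 interferon-stimulated genes the medians were -0.18, 0.28, -0.31, 0.27 and -0.09, with 22 of 25 at 0.1 or more. The 6 mitosis and G2/M genes that passed 5 CPM ran the other way, at 0.17, -0.10, 0.22, -0.18 and 0.01. The medians over all 10551 genes stayed between -0.01 and 0.01. The basal keratinocyte markers (12 genes) had a median excess CV of 0.0278, the ribosomal protein genes 0.0361 and the YAP and TEAD pathway genes 0.0161.

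**Figure D5:**
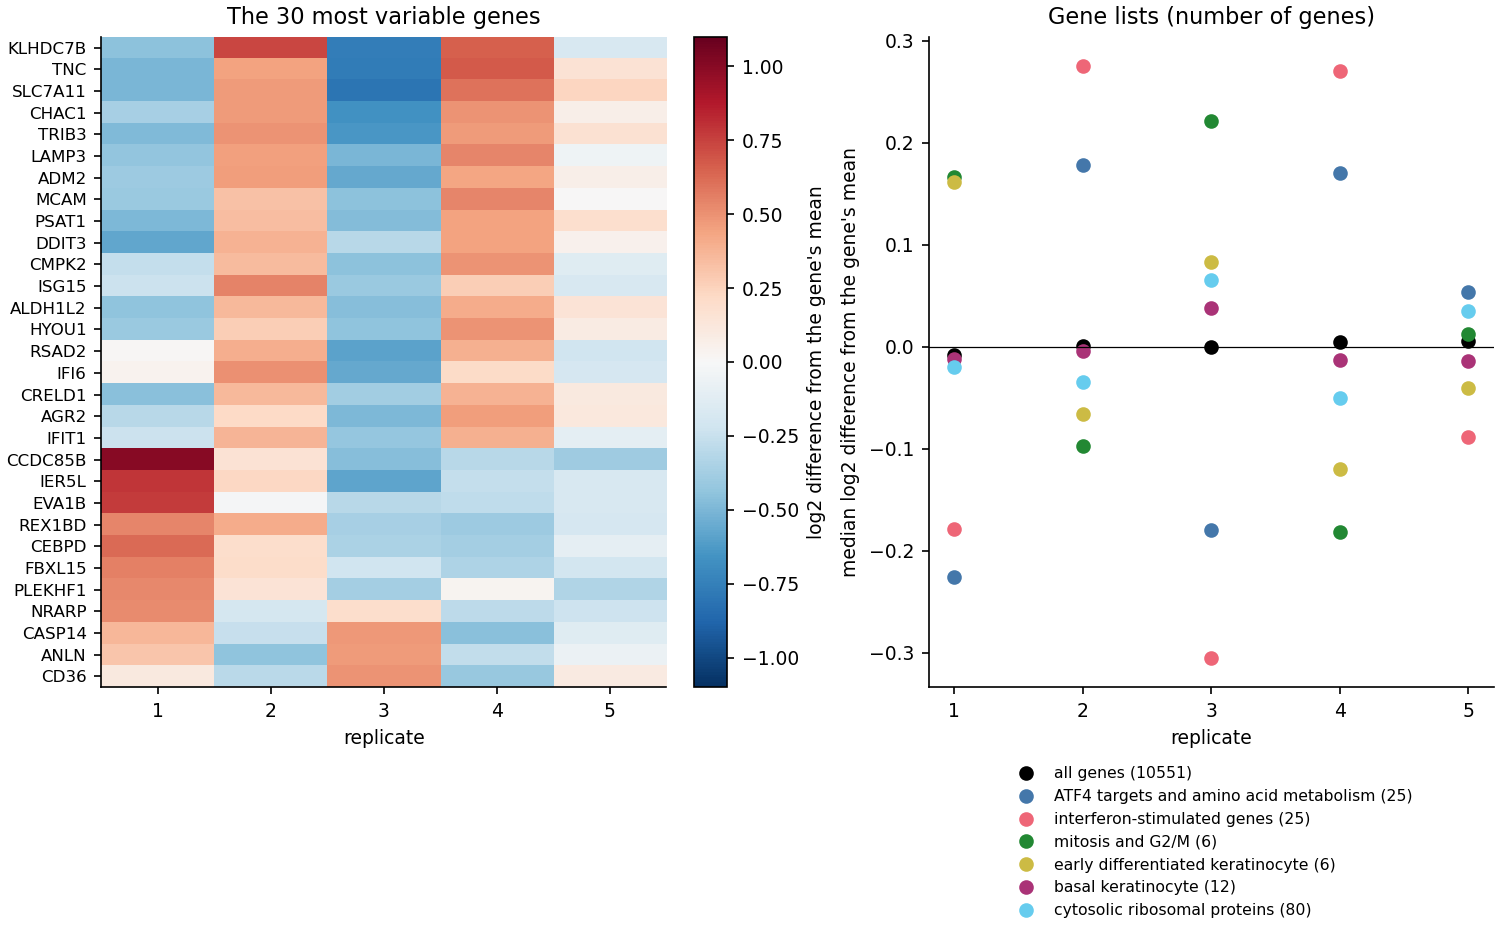
Left, the 30 most variable genes as the log2 difference of each replicate from the gene's mean (red higher, blue lower). Right, the median of that difference over genes of each list in each replicate, with the number of genes in brackets. Interferon-stimulated genes and ATF4 targets are above 0 in replicates 2 and 4 and below 0 in replicates 1 and 3, and the mitosis list has the opposite signs.

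Replicates 2 and 4 had 15922617 and 30505904 counts, and replicates 1 and 3 had 14083504 and 23685751. With every library thinned to the smallest total, 26 of the 30 genes remained among the 30 most variable. The GC content of genes ran with the deviations of whole libraries: Spearman's rho between GC content and log2 deviation across 10532 genes was 0.209, 0.117, -0.270, 0.149 and -0.326 in replicates 1 to 5, given as a description since genes of a library share its preparation. The 8 genes highest in replicate 1 had a median GC content of 66.1%, against 47.8% for all genes and 52.5% for the 19 genes highest in replicates 2 and 4. CCDC85B, first of all 10551, was at 23.6, 13, 8.21, 9.21 and 8.68 scaled CPM with 71.7% GC, and CEBPD, a C/EBP transcription factor, at 59.3, 43.8, 30.1, 29.6 and 35.8 with 66% GC. All annotated exonic bases of EVA1B, another gene of this set, overlap a neighbouring gene. After the GC trend was removed, an alternative chosen after seeing the data, 27 of the 30 remained among the 30 most variable, with FBXL15, PLEKHF1 and CD36 leaving. The part of GC content in the spread of the others was not tested further.

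CASP14, ANLN, NRARP and CD36 had replicates 1 and 3 highest. ANLN (anillin), which acts in cytokinesis, was at 8.60, 4.91, 9.65, 5.61 and 6.54 scaled CPM, and CD36, a fatty acid receptor, at 13, 9.69, 17.1, 8.89 and 12.9. KRT10, KRT13, KRT4 and SPRR1B, described above, had the same 2 replicates highest, and the early differentiation list (6 genes) had medians of 0.16, -0.07, 0.08, -0.12 and -0.04. The first principal component over genes took 44.4% of the variance between the libraries.

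Promoters of 4 genes are shown because they hold letters known as binding motifs of stress and interferon factors and were highest in replicates 2 and 4. Each line gives the 250 bases before the RefSeq start (GRCh38.p14), 5′ to 3′ on the gene's strand. Capitals mark TGATGNAA, the C/EBP-ATF response element, in CHAC1 (on the opposite strand), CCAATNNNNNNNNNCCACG, the ER stress response element, in HSPA5, and GAAANNGAAA, the interferon-stimulated response element, in ISG15 and IFIT1 (overlapping copies in ISG15, opposite strand in IFIT1). Both strands were searched.
CHAC1, chr15:40953221-40953470, plus strand: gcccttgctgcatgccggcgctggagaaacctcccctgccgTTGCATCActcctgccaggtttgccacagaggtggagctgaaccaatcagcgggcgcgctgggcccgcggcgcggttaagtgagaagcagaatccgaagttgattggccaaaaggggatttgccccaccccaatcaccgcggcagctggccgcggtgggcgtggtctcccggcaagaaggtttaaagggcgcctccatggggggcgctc
HSPA5, chr9:125241344-125241593, minus strand: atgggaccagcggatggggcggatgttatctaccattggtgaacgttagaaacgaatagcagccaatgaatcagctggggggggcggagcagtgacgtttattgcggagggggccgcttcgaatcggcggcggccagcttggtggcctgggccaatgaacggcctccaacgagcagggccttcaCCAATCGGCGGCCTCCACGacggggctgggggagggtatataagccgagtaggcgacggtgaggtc
ISG15, chr1:1013247-1013496, plus strand: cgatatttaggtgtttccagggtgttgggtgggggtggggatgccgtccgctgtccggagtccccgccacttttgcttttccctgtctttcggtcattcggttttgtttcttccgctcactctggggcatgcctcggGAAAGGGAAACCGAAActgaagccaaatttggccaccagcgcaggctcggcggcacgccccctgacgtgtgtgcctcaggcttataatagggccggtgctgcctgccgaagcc
IFIT1, chr10:89392373-89392622, plus strand: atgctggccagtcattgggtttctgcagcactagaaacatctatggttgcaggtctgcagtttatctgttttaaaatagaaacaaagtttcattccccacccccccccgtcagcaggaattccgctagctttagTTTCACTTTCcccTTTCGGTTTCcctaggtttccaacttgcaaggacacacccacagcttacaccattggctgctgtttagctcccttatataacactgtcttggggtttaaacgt
GAAANNGAAA was in 11 of 19 promoters of the interferon-stimulated list (57.9%), against 3.07% of all 27304 promoters. TGATGNAA was in 4 of 22 promoters of the ATF4 list (18.2%), against 3.19% of all. The ER stress letters were in the promoters of HSPA5, HSP90B1, CALR and CANX, 4 of 22 chaperone promoters, against 0.0806% of all. The ATF4 and interferon lists are lists of known targets, so these shares describe the lists and not the spread between replicates. Of the 30 most variable genes, 24 had a promoter in the table. Among these, 2 held TGATGNAA, 3 held GAAANNGAAA and 0 held the ER stress letters. A match is a description of the letters, and whether it bears on the spread was not tested. Promoters of SLC7A11, ALDH1L2 and LAMP3 had no entry.

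The same genes were then measured in the replicates of the other 3 groups, which took no part in choosing them. In WT HDW libraries 29 of the 30 genes were high enough to measure and had a median excess CV of 0.210, against 0.0369 for all genes there. The medians were 0.171 against 0.101 for 25 genes in GCN2KO unwounded libraries and 0.128 against 0.0550 for 25 genes in GCN2KO HDW libraries. The replicate medians of the ATF4 list spanned 0.40 on the log2 scale in the unwounded WT libraries and 0.33 in the wounded ones, against 0.07 and 0.18 in GCN2KO libraries. Those of the interferon list spanned 0.58 and 0.84 in WT and 0.61 and 0.34 in GCN2KO libraries, unwounded first. Whether these spans differ between groups was not tested.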

How the data were processed

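Total RNA from WT unwounded NTERT cells was sequenced as 150-base paired reads. Per the labels and the study's methods the authors used Trimmomatic, STAR, GRCh38 and featureCounts, counting uniquely mapped reads, and the deposited values are whole-number counts per gene. RNA selection, strand setting and annotation release are not given in the sources used here. Of 57500 genes, 1090 were not matched to GENCODE 44 (at most 0.127% of counts), and MT-RNR1, MT-RNR2 and SOD2 are not analysed here. TPM used the union of exonic bases. Spread was measured on TMM-scaled CPM (edgeR 4.0.16, R 4.3.3, Python 3.11.15) at a mean of 5 CPM or more. The excess CV is the square root of the squared CV minus the mean reciprocal expected count. The scripts were tested on simulated data. Named genes were the eIF2 kinases, the 25 highest by TPM and by CPM, up to 6 expressed and 4 silent members of each family, up to 5 leaders of each list, the defining markers, the 30 most variable and the 10 steadiest genes. Other genes were named after their values were seen. The members and lists were chosen with earlier results of these data known. No test between groups was run. Promoters came from RefSeq (GRCh38.p14). Shared windows are exact 150-base matches to other annotated genes. Alternatives were other gene lengths, thresholds, scalings, filters and leaving out each replicate.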

Additional observations from a re-analysis of the deposited data

Results flagged for a closer look

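Of 180 values checked over the 5 libraries, 8 (4.44%) had 1 library further from the other 4 than Dixon's limit of 0.71 of the range allows, and chance gives about 5% of such values. The share of counts in protein-coding genes was 97.9936% in replicate 5, against 98.043% or more in the others. The share of TPM from the protein-coding genes of the mitochondrial genome was 2.16% in replicate 2, that of nuclear oxidative phosphorylation genes 1.17% in replicate 4, and that of DNA replication and G1/S genes 0.0657% in replicate 2, each the lowest of its 5. KRT7, a simple-epithelium keratin, was at 5.90 TPM in replicate 5 and at 4.66 to 4.95 TPM in the others. DSP was at 664 TPM in replicate 1 and at 609 to 623 TPM in the others. CDKN2A was at 23.9 TPM in replicate 1 and at 14 to 16.3 TPM in the others, and counts per gene do not separate its transcripts. EVA1B was at 11.9 scaled CPM in replicate 1 and at 5.42 to 6.73 in the others. Replicate 1 stood apart in 3 of the 8 values and replicate 3 in none of them. The cause was not tested.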

How the results depend on the processing

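No paired analysis was possible because no result compares groups by a test, and the levels and spreads are measured within a group. The share of TPM in ribosomal protein genes was 18.7% with the longest transcript as length, 25.7% with the canonical transcript and 16.3% without mitochondrial genes. In the same order keratins held 3.39%, 3.26% and 3.19%. The mitochondrial coding genes held 1.63% and 1.21%, and the S100 proteins and annexins 2.82% and 2.56%, with the longest and canonical transcripts. Canonical length and removal of the GC trend were chosen after seeing the data. TPM of 68 of the 121 genes checked moved over 1.5 times with canonical length and of 7 with the longest transcript. Genes with an excess CV of 0.3 or more numbered 107 at a mean of 1 CPM or more and 5121 with no filter, where counts are few. Leaving out 1 library gave 9 to 25 such genes, with 21 without replicate 2 and 25 without replicate 5. Between 21 and 25 of the 30 most variable genes remained when 1 library was left out. Of 270 recomputed family counts 266 stayed within 1.5 times. Low genes are limited by the smallest library, of 14083504 counts.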
